A study of Mus musculus with 6 samples.

Results

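Acinar cells make and secrete the digestive enzymes of the pancreas. In 4 single-cell RNA libraries of mouse pancreas in homeostasis, 97 of 3225 kept cell barcodes met the rule for acinar barcodes, 33 of them enzyme-poor and 64 enzyme-rich. A kept barcode had at least 200 detected genes and at most 20% mitochondrially encoded UMIs (unique molecular identifiers, the counted RNA molecules). A barcode was called enzyme-rich when 11 digestive enzyme genes (Ctrb1, Cela2a, Cela3b, Cpa1, Cpb1, Prss2, Try4, Try5, Pnlip, Clps and Rnase1) made up at least 25% of its UMIs. A barcode with a smaller share was called enzyme-poor when it held at least 3 UMIs of Rbpjl, an acinar transcription factor gene. Barcodes were thus chosen by their enzyme share and their Rbpjl count, which are measured values of the same barcodes, so differences between the forms are descriptions with no test.

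An acinar cell devotes most of its messenger RNA to secreted zymogens and other digestive products, which it translates on rough endoplasmic reticulum, packs into zymogen granules and releases into the ducts. This program is driven by PTF1, a complex of the basic helix-loop-helix protein Ptf1a, an E protein and Rbpjl, which binds an E-box together with a TC-box near acinar genes. A nucleus holds unspliced and retained RNA such as Malat1, Neat1 and Xist, little ribosomal protein mRNA and no mitochondrial transcripts, whereas cytoplasm holds the mature mRNA that is being translated.

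The mice carried R26[CA]30EYFP, a Rosa26 reporter of a yellow fluorescent protein (EYFP) that a CA repeat keeps out of frame until the repeat slips, on the C57Bl/6J background. All animals carried the reporter, and age, sex and number of animals are not stated in the labels. The 4 libraries were EYFP positive cells of runs 1 and 2 and EYFP negative cells of runs 1 and 2, all untreated, so each EYFP group had 2 libraries. The labels do not tie libraries to separate animals, and p-values cover only how these libraries vary, which may be technical. The homeostasis libraries held 4522 deposited barcodes and between 1044718 and 8008285 UMIs each. The whole series held 8582 barcodes, 4929 of them kept, with another pair of libraries taken 9 days after pancreatitis was induced with cerulein, where the same rule found 1 enzyme-poor barcode and 451 enzyme-rich ones. The EYFP transgene has 0 rows in the count tables, and the sort was not checked against it. Both libraries of a run shared cell barcodes, 23 in run 1 and 71 in run 2, while libraries of different runs shared at most 2. Of the 97 acinar barcodes, 4 were shared within a run, and 1 of them, an enzyme-rich barcode of EYFP positive run 2 with 540 UMIs and 35.2% enzymes, had 9911 UMIs and 0.363% enzymes in EYFP negative run 2.

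Because the rule rests on PTF1 target genes and on Rbpjl itself, 3 promoters are shown, from 250 bases before to 50 bases after the annotated start (RefSeq, build GRCm38.p6). Ctrb1, a chymotrypsinogen gene, lies at chr8:111690961-111691260 (minus strand), Cela1, an elastase gene outside the rule, at chr15:100687871-100688170 (minus strand), and Rbpjl at chr2:164402944-164403243 (plus strand). Capitals mark matches to the E-box CANNTG and to the TC-box core TTTCCC, searched on both strands.
Ctrb1: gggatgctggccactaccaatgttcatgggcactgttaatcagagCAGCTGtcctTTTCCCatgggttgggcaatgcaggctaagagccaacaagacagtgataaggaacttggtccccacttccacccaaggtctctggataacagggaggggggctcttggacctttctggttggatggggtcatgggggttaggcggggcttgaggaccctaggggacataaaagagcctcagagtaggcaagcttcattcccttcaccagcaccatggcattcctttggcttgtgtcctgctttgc
Cela1: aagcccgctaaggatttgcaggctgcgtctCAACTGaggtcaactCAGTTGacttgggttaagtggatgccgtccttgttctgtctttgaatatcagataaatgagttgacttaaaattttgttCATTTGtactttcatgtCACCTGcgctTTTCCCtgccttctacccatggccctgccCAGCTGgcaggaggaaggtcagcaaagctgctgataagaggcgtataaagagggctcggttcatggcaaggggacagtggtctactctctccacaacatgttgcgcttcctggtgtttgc
Rbpjl: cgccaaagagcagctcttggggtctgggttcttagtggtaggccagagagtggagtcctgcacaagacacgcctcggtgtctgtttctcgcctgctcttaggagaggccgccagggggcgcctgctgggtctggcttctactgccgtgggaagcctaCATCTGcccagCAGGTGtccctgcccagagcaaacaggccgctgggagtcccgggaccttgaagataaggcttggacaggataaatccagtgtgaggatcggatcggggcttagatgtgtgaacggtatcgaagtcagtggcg
Ctrb1 and Cela1 each held a CANNTG that stood 4 bases from TTTCCC, and Rbpjl held 2 CANNTG matches and no TTTCCC. Of the 11 rule enzymes, 9 had a promoter in the table, 4 of these held TTTCCC, and 2, Ctrb1 and Cpa1, held both motifs within 25 bases. Among all 27025 promoters, TTTCCC was found in 25.2%, CANNTG in 72.1% and both within 25 bases in 5.56%. These matches describe the letters of a 300-base window only.

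The 2 forms were spread unequally over the libraries. Enzyme-poor barcodes numbered 3 and 26 in EYFP positive runs 1 and 2, and 0 and 4 in EYFP negative runs 1 and 2. Enzyme-rich barcodes numbered 35 and 5 in EYFP positive runs 1 and 2, and 8 and 16 in EYFP negative runs 1 and 2. EYFP positive run 2 thus held 26 of the 33 enzyme-poor barcodes. The edges of the rule were sparsely filled. The enzyme-rich barcodes nearest the limit had 25.9%, 27.9% and 30.6% enzymes, and the nearest kept barcodes below it had 17.7%, 21.7% and 23% and no Rbpjl UMI. At the other edge, 3 enzyme-poor barcodes had 3 Rbpjl UMIs and 2 had 4, while 6 other kept barcodes had 2 and 24 had 1. Of the barcodes with 1 or 2, 13 were in EYFP positive run 2. Among the 64 enzyme-rich barcodes, 55 held no Rbpjl UMI. Scrublet, a doublet caller, marked 11 kept barcodes of these libraries and none of the 97.

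**Figure D1:**
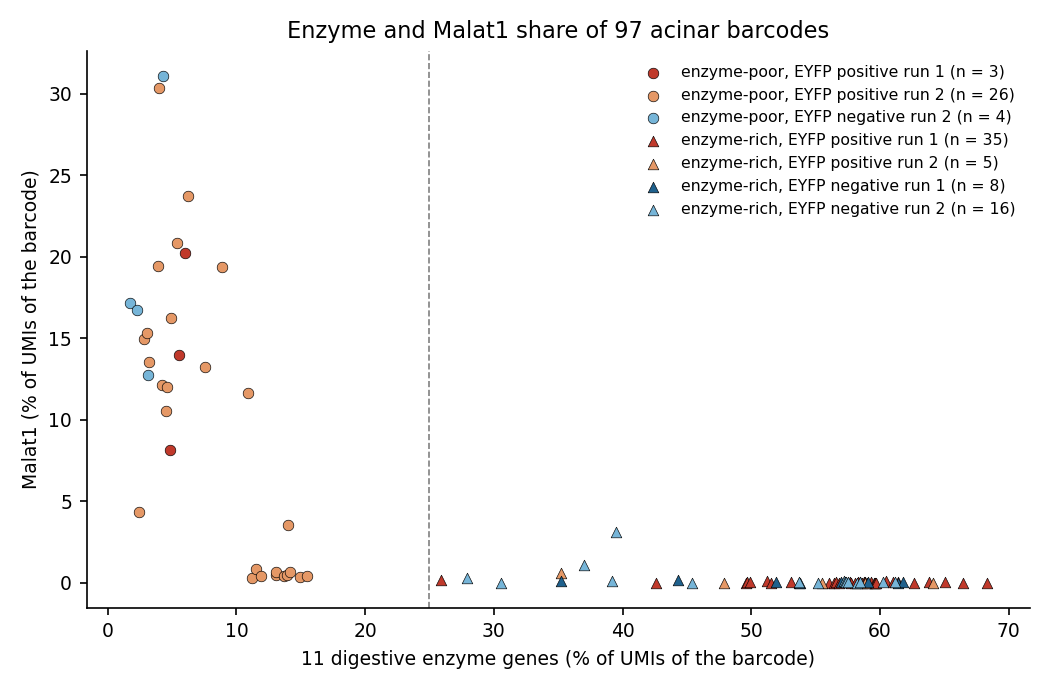
Each point is 1 of the 97 acinar barcodes, placed by its share of UMIs from the 11 enzyme genes (x, %) and from Malat1 (y, %); circles are enzyme-poor, triangles enzyme-rich, colours are libraries, and the dashed line is the 25% limit. Enzyme-poor barcodes split into 23 with at least 3.55% Malat1 and 10 with at most 0.828%, while enzyme-rich barcodes stayed at or below 3.1%.

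Enzyme-poor barcodes had a median of 5.53% rule enzymes (range 1.70% to 15.5%), 2048 UMIs, 1005 genes and 12.1% Malat1. They fell into 2 sets. After the values were seen, they were divided at 1% Malat1, a limit with no barcode between 0.828% and 3.55%. The 23 Malat1-high barcodes (3, 16 and 4 in EYFP positive runs 1 and 2 and EYFP negative run 2) had a median of 14.9% Malat1, 4.53% enzymes and 0.5% mitochondrial UMIs. The 10 Malat1-low barcodes, all in EYFP positive run 2, had a median of 0.447% Malat1, 13.4% enzymes and 4.36% mitochondrial UMIs, and ribosomal protein genes took 5.86% of their UMIs. In the Malat1-high barcodes of the same library ribosomal protein genes took 0.898%. Much Malat1 and little ribosomal protein RNA, as in nuclei, thus described the 23 Malat1-high barcodes and not the 10 Malat1-low ones. The mitochondrial share did not set the Malat1-high barcodes apart from enzyme-rich ones, whose median was 0.205%; in EYFP negative run 2 the medians were 2.18% in Malat1-high and 1.12% in enzyme-rich barcodes, and single Malat1-high barcodes reached 12.2%. Malat1 of at least 10% was not particular to acinar barcodes: 3.76% and 6.41% of the other kept barcodes in EYFP positive runs 1 and 2 reached it, and 6.74% and 29.1% in EYFP negative runs 1 and 2.

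The 10 Malat1-low barcodes stood apart in further measures. At 650 UMIs each, their gene counts varied with a chi-square per degree of freedom of 0.866, against 2.39 to 2.90 among Malat1-high barcodes of a library and 11 among the other barcodes of EYFP positive run 2. They also held RNA of other cell types. Summed UMIs of 8 duct markers came to 7624 CPM (counts-per-million of all UMIs) in the Malat1-low barcodes, 781 in the Malat1-high barcodes and 16230 in the other barcodes of that library. Markers of endothelial, B or plasma, T or NK, macrophage, fibroblast and erythroid cells stood in the Malat1-low barcodes at 30.7% to 72.1% of their level in the other barcodes, and in the Malat1-high barcodes at 0% to 9.04%. Of the fibroblast markers 2 of 6 and of the macrophage markers 4 of 6 were detected in the Malat1-low barcodes, with Col1a1, Col1a2, Lum, Pdgfra, Cd68 and Adgre1 at 0. Pericyte, endocrine and neutrophil markers were at 0 in them. The part of other cells' RNA in their enzyme and Rbpjl counts was not tested, and list medians and tests are given below with and without these barcodes. The Malat1-high barcode closest to them had 3.55% Malat1, 14.0% enzymes, 7.19% mitochondrial UMIs and 29 Rbpjl UMIs.

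**Figure D2:**
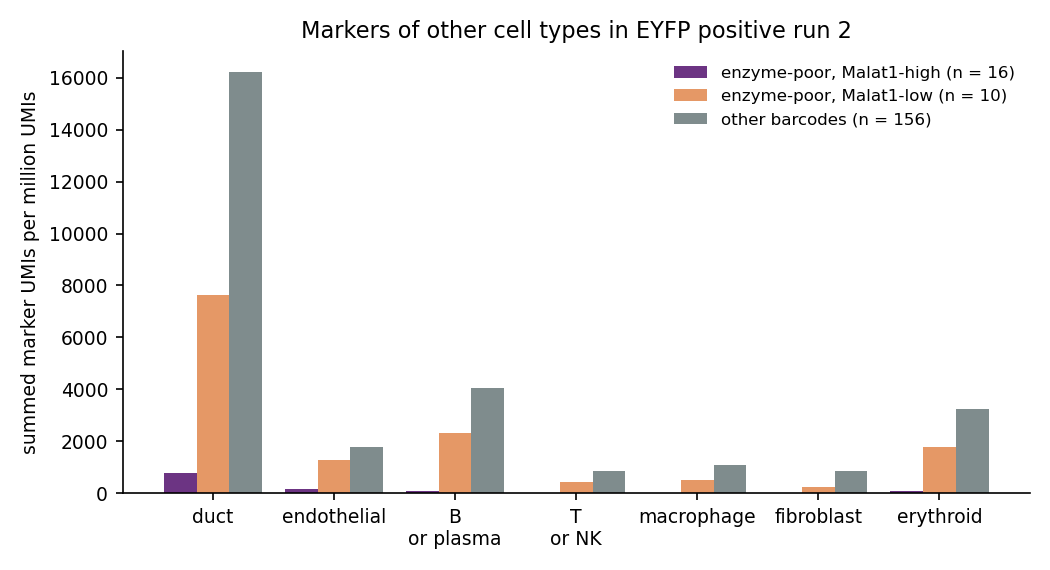
Bars give the summed UMIs of marker genes of 7 other cell types in CPM (y) in EYFP positive run 2, for Malat1-high enzyme-poor, Malat1-low enzyme-poor and other barcodes. Malat1-low barcodes stood between the others for every marker list shown, at 7624 against 781 and 16230 for duct markers.

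Enzyme-rich barcodes were dominated by secretory messages. The 11 rule enzymes had a median of 57.5% of UMIs (range 25.9% to 68.3%), and together with 41 other secretory product genes they made up 82.5% of the summed UMIs. Enzyme-rich barcodes had a median of 4706 UMIs but only 366.5 genes, and a median of 0.0119% Malat1. When thinned to 1000 UMIs, Malat1-high enzyme-poor barcodes had 361 to 613 genes each and enzyme-rich barcodes 83 to 520, with 4 of 23 and 2 of 64 shallower barcodes left out. Enzyme-rich libraries were close in their enzyme share, at 54.8% to 59.3% of summed UMIs, and differed more in other classes. Mitochondrially encoded RNA took 0.844% and 0.271% in EYFP positive runs 1 and 2, and 1.65% and 2.12% in EYFP negative runs 1 and 2. Ribosomal protein genes took 5.74% and 7.15% of UMIs in EYFP positive runs 1 and 2, and 4.84% and 6.39% in EYFP negative runs 1 and 2. A single barcode of 64918 UMIs gave 23.5% of the enzyme-rich UMIs of EYFP positive run 1.

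Among enzyme-rich barcodes the mixture of enzymes varied. The share of Clps, the colipase that anchors pancreatic lipase to fat droplets, ran from 0.185% to 23% of a barcode's UMIs (median 5.87%). The share of Cela2a, an elastase, ran from 0.145% to 19.7% (median 6.96%). Ctrb1 ran from 2.41% to 19.9% (median 10%). Every enzyme-rich barcode held UMIs of all 11 genes. Between libraries, Clps took 6.12% and 14.9% of the summed UMIs in EYFP positive runs 1 and 2, against 4.54% and 8.93% in EYFP negative runs 1 and 2. Both EYFP groups were lower in run 1, but the sum of EYFP positive run 2 came from 5 barcodes. Single barcodes gave 4323 and 3780 of its 11088 UMIs. Ctrb1 took 10.2% and 7.76% in EYFP positive runs 1 and 2 and 9.42% and 12.2% in EYFP negative runs 1 and 2. At 650 UMIs per barcode, gene counts varied between enzyme-rich barcodes of a library with a chi-square per degree of freedom of 2.86 to 6.98, where sampling alone gives about 1. Trypsinogen genes (Prss2, Try4, Try5, 2210010C04Rik) and amylase genes are near-identical copies, so reads may be split among them.

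**Figure D3:**
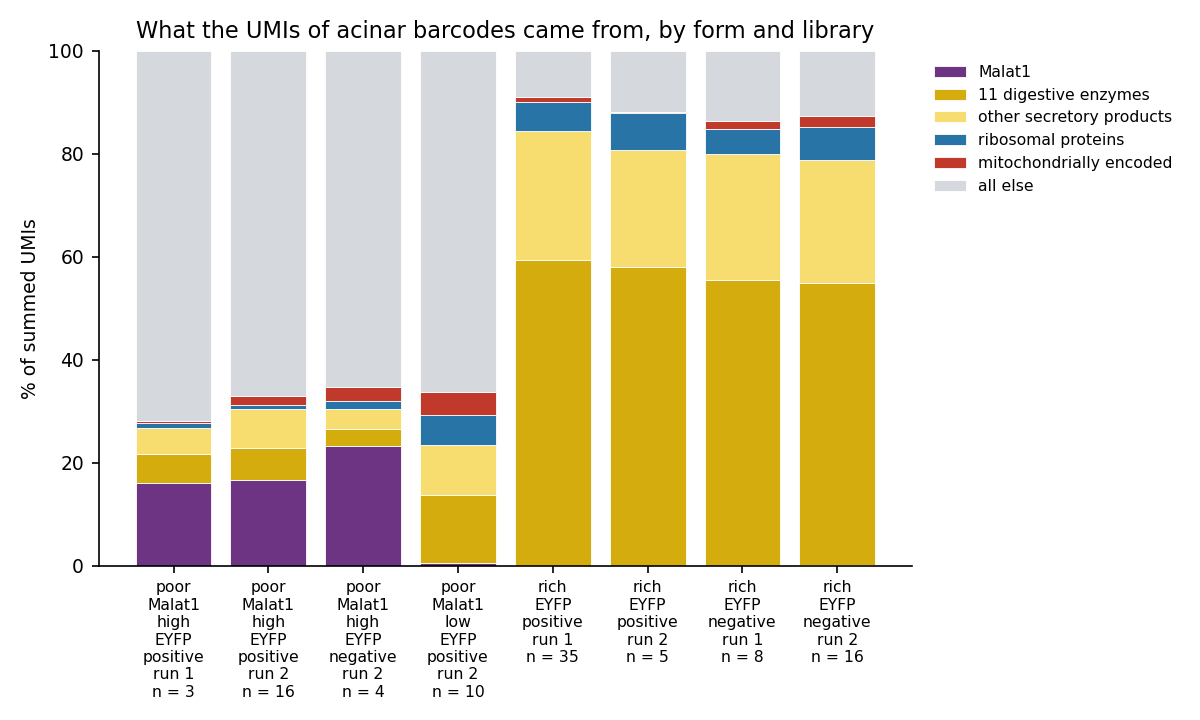
Stacked bars give the share of summed UMIs (y, %) from each class of RNA in the acinar barcodes of each form and library (x, with the number of barcodes). Malat1 filled 16.1% to 23.3% of the Malat1-high enzyme-poor bars and the 11 digestive enzymes filled 54.8% to 59.3% of the enzyme-rich bars.

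RNA outside acinar barcodes gives the background for these genes. Lymphocytes, which do not make acinar products, were taken as kept barcodes outside the acinar set with at least 3 UMIs of lymphocyte markers. Rbpjl was found in 0 of 64 and 1 of 59 lymphocytes in EYFP positive runs 1 and 2, and in 1 of 160 and 2 of 462 in EYFP negative runs 1 and 2, never above 1 UMI. Their median depth was 4034 to 6598 UMIs, which is deeper than the 2048 UMIs of enzyme-poor barcodes. Ctrb1 was found in 60.9% and 88.1% of lymphocytes in EYFP positive runs 1 and 2, and in 53.8% and 65.4% in EYFP negative runs 1 and 2, so a single Ctrb1 UMI marked no acinar cell. The 11 enzymes together had a median share of 0.0860% to 0.229% of lymphocyte UMIs over the libraries. Other kept barcodes of EYFP positive run 2 held more acinar RNA than those of the other libraries: Rbpjl reached a level of 20.7 nsCPM there, counts-per-million of the UMIs outside secretory product genes, against 0.559 nsCPM in EYFP positive run 1 and 1.11 and 1.64 nsCPM in EYFP negative runs 1 and 2.

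For differences between the forms, levels are in nsCPM, without the secretory product genes in the total, because these genes alone took 14.6% of enzyme-poor and 82.5% of enzyme-rich UMIs. In all, 331 genes had at least 50 UMIs in both forms together. Their median log2 ratio of enzyme-poor over enzyme-rich was -2.02 on this scale and 0.26 per all UMIs. This shift of 2.28 applies to every log2 ratio below that pools all enzyme-poor and all enzyme-rich barcodes. Ratios within a library or without the Malat1-low barcodes shift by other amounts. Of all 331 genes, 98 were higher and 233 lower on the scale without secretory products, and 172 were higher and 159 lower per all UMIs. At least 4-fold higher were 64 genes, a background of 19.3%, and at least 4-fold lower were 167, a background of 50.5%. Per all UMIs the backgrounds were 31.1% and 17.5%, and without the Malat1-low barcodes the counts on the first scale were 65 and 191. The rule used these counts, so no count of a list is a test, and the intervals given are 95% counting intervals that cover counting error only.

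RNAs retained in the nucleus were mostly higher in enzyme-poor barcodes, above all in the Malat1-high ones, which were divided off by Malat1 itself. The whole list took 21.4% of UMIs in Malat1-high, 2.9% in Malat1-low and 2.3% in enzyme-rich barcodes, and 5.51% in other kept barcodes. Malat1, a noncoding RNA of nuclear speckles, took 16.1% and 12.4% of enzyme-poor UMIs in EYFP positive runs 1 and 2 and 23.3% in EYFP negative run 2, against 0.0167%, 0.0271%, 0.0340% and 0.0966% of enzyme-rich UMIs in EYFP positive runs 1 and 2 and EYFP negative runs 1 and 2. These library sums did not overlap between the forms, but single barcodes did, with up to 3.1% in enzyme-rich and at most 0.828% in Malat1-low ones. The log2 ratio of Malat1 was 6.27, or 6.57 without the Malat1-low barcodes. Neat1, the scaffold RNA of paraspeckles, had 234 UMIs in enzyme-poor and 5 in enzyme-rich barcodes, with UMIs in 23 of 23 Malat1-high and 3 of 64 enzyme-rich barcodes. Xist, the RNA that coats the inactive X chromosome, had 175 UMIs in enzyme-poor and 1 in enzyme-rich barcodes, a ratio of 211 (interval 37.4 to 8378). It was seen in enzyme-poor barcodes of all 3 libraries that held them. Its UMIs lay in 11 of 23 Malat1-high, 3 of 10 Malat1-low and 1 of 64 enzyme-rich barcodes. Gm42418 was the exception among the 5 measured RNAs of the list, with a log2 ratio of -2.05, which turned to 0.23 per all UMIs. It gave 9944 of the list's 10123 UMIs in enzyme-rich barcodes and reached 41.0% of the UMIs of a single barcode. Whether its reads come from a nuclear RNA was not tested. The list median was 5.68 (5.87 without the Malat1-low barcodes), and 4 of its 5 genes were at least 4-fold higher.

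**Figure D4:**
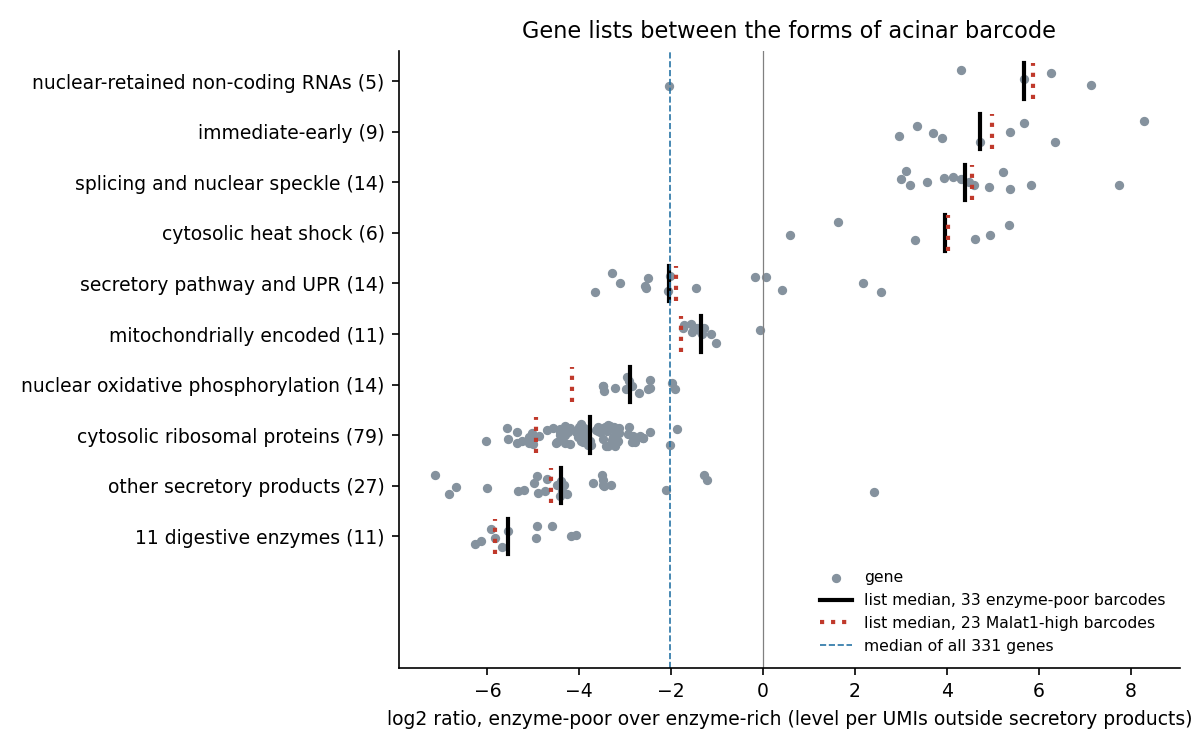
Each grey point is 1 gene, placed by its log2 ratio of enzyme-poor over enzyme-rich level (x) within its list (y, number of measured genes in brackets); solid lines are list medians, dotted lines the medians with the 23 Malat1-high barcodes alone, and the dashed line is the median of all 331 genes. Nuclear RNAs, immediate-early, splicing and heat shock genes lay to the right, and ribosomal, oxidative phosphorylation and secretory genes to the left; the shift of 2.28 per all UMIs moves the medians of mitochondrially encoded and secretory pathway genes above 0.

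Messages for splicing factors and nuclear speckle proteins were higher in enzyme-poor barcodes in all 14 measured cases, with a median log2 ratio of 4.39, or 4.54 without the Malat1-low barcodes. Luc7l2, a component associated with the U1 snRNP, had 165 UMIs against 3, a ratio of 66.3 (interval 22.3 to 325). Snrnp70, which encodes the U1 70K protein, had 171 against 5, and Clk4, a kinase of splicing factors, 51 against 1. Prpf4b, a splicing kinase, had 89 UMIs in enzyme-poor and 0 in enzyme-rich barcodes, at least 35.8-fold higher with a floor of 3 counts over the enzyme-rich group. The measured list members with the smallest ratios were Srsf5 and the RNA helicase Ddx5, both more than 4-fold higher.

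Immediate-early genes, which are transcribed within minutes of a stimulus and also during cell dissociation, were higher in all 9 measured cases, with a median log2 ratio of 4.71 (4.98 without the Malat1-low barcodes). Fos, a subunit of the AP-1 transcription factor, stood at 4770 and 4213 nsCPM in enzyme-poor barcodes of EYFP positive runs 1 and 2 and at 5108 in EYFP negative run 2. Its enzyme-rich levels were 46.4 and 0 in EYFP positive runs 1 and 2 and 298 and 47.6 in EYFP negative runs 1 and 2. The library levels of the forms thus did not overlap, while single barcodes did. Egr1, a zinc finger factor, had 168 UMIs against 2 (interval of the ratio 27.6 to 843), and Jun 432 against 12. Fosb had 130 against 0 and Atf3, a stress-induced bZIP factor, 25 against 0, at least 52.2-fold higher for Fosb and at least 10-fold for Atf3. These genes varied among Malat1-high barcodes: Fos was seen in 17 of 23 with up to 55 UMIs, and Btg2, an antiproliferative early gene, in 21 of 23 with up to 64. The level of Fos in the other kept barcodes ran from 284 to 1528 over the libraries, below the enzyme-poor level in each.

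Of 12 listed cytosolic heat shock genes, 6 were measured, and the whole list had 489 UMIs in enzyme-poor and 132 in enzyme-rich barcodes. All 6 were higher in the pooled barcodes, with a median log2 ratio of 3.96 (4.03 without the Malat1-low barcodes), but not in every library. The 12 listed genes together took 0.124% and 0.913% of UMIs outside secretory products in enzyme-poor barcodes of EYFP positive runs 1 and 2 and 0.361% in EYFP negative run 2, against 0.186%, 0.328% and 0.171% in enzyme-rich barcodes of the same libraries. The inducible Hspa1b had 84 UMIs against 2, and Hsp90aa1 91 against 4, whereas the constitutive chaperones Hspa8 and Hsp90ab1 had log2 ratios of 0.58 and 1.62. Within libraries Hspa8 was lower in enzyme-poor barcodes in 2 of 3, at 0.61 and -0.97 in EYFP positive runs 1 and 2 and -1.28 in EYFP negative run 2, and Hsp90ab1 was at -0.53 in EYFP positive run 1. Hspa1a and Hspa1b are near-identical copies, so their split is uncertain.

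Messages of the translation and respiration machinery went the other way. All 79 measured ribosomal protein genes were lower in enzyme-poor barcodes, against 233 of all 331 genes. Their median log2 ratio was -3.77, and -4.94 without the Malat1-low barcodes. Per all UMIs 77 of 79 were lower, against 159 of all 331 genes. Rplp1, a protein of the ribosomal stalk, stood at 0 and 605 nsCPM in enzyme-poor barcodes of EYFP positive runs 1 and 2 and 374 in EYFP negative run 2, against 9818, 7955, 8848 and 13187 in enzyme-rich barcodes of EYFP positive runs 1 and 2 and EYFP negative runs 1 and 2. All 14 measured nuclear genes of oxidative phosphorylation were lower (median -2.89, and -4.16 without the Malat1-low barcodes), and 12 of 14 per all UMIs. In the pooled barcodes all 11 mitochondrially encoded genes were lower on the scale without secretory products (median -1.36, and -1.78 without the Malat1-low barcodes). All 11 were higher per all UMIs (median 0.93), so their pooled direction depended on the denominator. Libraries differed: per all UMIs these genes took 0.457% of enzyme-poor and 0.844% of enzyme-rich UMIs in EYFP positive run 1. In EYFP negative run 2 they took 2.81% and 2.12%. Their median lay above that of all 331 genes, a position that the change of denominator cannot alter. Within EYFP positive run 2 the 13 listed genes together were higher in enzyme-poor barcodes on the first scale too, at 2.85% against 1.40% of UMIs outside secretory products. The level of mt-Co1, a cytochrome oxidase subunit, overlapped between the forms: 1060 and 3649 in EYFP positive runs 1 and 2 and 2990 in EYFP negative run 2 among enzyme-poor barcodes, against 8959 and 1872 in EYFP positive runs 1 and 2 and 11830 and 16139 in EYFP negative runs 1 and 2 among enzyme-rich barcodes.

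The 11 rule enzymes, whose sum chose the forms, were all lower in enzyme-poor barcodes, but not by the same factor. Cela2a and Try4 were 77.2-fold and 71.0-fold lower, and Rnase1, a pancreatic ribonuclease, 16.9-fold. Of 27 other measured secretory products 26 were lower, with a median log2 ratio of -4.40 (-4.63 without the Malat1-low barcodes). Per all UMIs 23 of 27 were lower, against 159 of all 331 genes. Cela1 stood at 14308 and 25825 nsCPM in enzyme-poor barcodes of EYFP positive runs 1 and 2 and 10589 in EYFP negative run 2, against 343860, 229290, 270110 and 229610 in enzyme-rich barcodes of EYFP positive runs 1 and 2 and EYFP negative runs 1 and 2, and was 13.1-fold lower. Spink1, the trypsin inhibitor, was 30.5-fold lower. Cel, the bile salt-activated lipase, was 9.88-fold lower, and Pdia2, a pancreatic protein disulfide isomerase, only 2.34-fold. The lower level did not reach the background of other cells: Cela1 in enzyme-poor barcodes exceeded its level in the other barcodes of the same library, which was 154 and 401 in EYFP positive runs 1 and 2 and 222 in EYFP negative run 2.

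Ctrc, the chymotrypsin C gene whose product degrades trypsinogen, was the only 1 of the 38 measured secretory genes that was higher in enzyme-poor barcodes on the scale without secretory products. It stood at 2120 and 7137 nsCPM in enzyme-poor barcodes of EYFP positive runs 1 and 2 and 3862 in EYFP negative run 2. Its enzyme-rich levels were 1578 and 936 in EYFP positive runs 1 and 2 and 398 and 762 in EYFP negative runs 1 and 2. The library levels of the forms did not overlap, while single barcodes did, from 0 nsCPM in Malat1-high to 5698 nsCPM in enzyme-rich ones. The ratio was 5.32 (interval 4.22 to 6.76), with log2 ratios of 2.40 over all enzyme-poor barcodes and 2.31 without the Malat1-low ones. Ctrc was detected in 22 of 23 Malat1-high and 33 of 64 enzyme-rich barcodes. Enzyme-rich barcodes were deeper in all UMIs but not outside secretory products. There 64 of them summed to 76286 UMIs, against 63292 in 33 enzyme-poor barcodes. Lymphocytes held Ctrc in 15.3% of cases in EYFP positive run 2 and in at most 0.649% elsewhere.

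As a set, genes of the secretory pathway and the unfolded protein response lay near the background. Of 14 measured genes, 10 were lower and 4 higher, against 233 lower and 98 higher among all 331 genes. The median log2 ratio of -2.05 (-1.90 without the Malat1-low barcodes) lay near the -2.02 of all genes. Per all UMIs it became 0.23, against 0.26 for all genes, and 6 were lower. Small translocon parts were lower, with Ssr4 at 9 UMIs against 143 and Sec61b at 9 against 98. Sel1l, the adaptor of the ER-associated degradation ligase, was higher at 4946 and 3951 nsCPM in EYFP positive runs 1 and 2 and 5980 in EYFP negative run 2 among enzyme-poor barcodes, against 603, 0, 1292 and 762 among enzyme-rich barcodes of EYFP positive runs 1 and 2 and EYFP negative runs 1 and 2. Herpud1, another degradation component, had a log2 ratio of 2.17. Hspa5, the ER chaperone BiP, had 97 UMIs against 88, a ratio of 1.33 whose interval (0.985 to 1.79) spans equality. Rrbp1, the ribosome-binding protein of the rough ER, stood outside the list with 364 UMIs against 103 and was named after its values were seen.

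Acinar transcription factors were sparse, and 2 of 22 listed reached 50 UMIs. Rbpjl, which chose the enzyme-poor form, had 3 to 29 UMIs in Malat1-high barcodes (median 10) and 3 to 10 in Malat1-low barcodes (median 6.5), and at most 3 in enzyme-rich ones. Its level was 3886 and 5544 nsCPM in EYFP positive runs 1 and 2 and 4360 in EYFP negative run 2 among enzyme-poor barcodes, against 69.6, 0, 298 and 286 among enzyme-rich barcodes of EYFP positive runs 1 and 2 and EYFP negative runs 1 and 2. Ptf1a, its partner in PTF1, had 34 UMIs against 12, a ratio of 3.42 (interval 1.72 to 7.24). Bhlha15 (Mist1), a factor for granule organisation, had 19 against 6, a ratio of 3.82 (interval 1.47 to 11.7). Nr5a2 and Gata4 had 7 against 5 and 5 against 2, and Nr5a2 was higher in 1 of 3 libraries only. Xbp1, the unfolded protein response factor, had 53 against 61, a log2 ratio of 0.07.

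Nupr1, a small stress-induced chromatin protein that is abundant in acinar cells, marked both forms. Its level was 19784 and 19938 nsCPM in EYFP positive runs 1 and 2 and 15323 in EYFP negative run 2 among enzyme-poor barcodes, against 12116, 22929, 5170 and 7570 among enzyme-rich barcodes of EYFP positive runs 1 and 2 and EYFP negative runs 1 and 2. The forms overlapped through EYFP positive run 2, and the log2 ratio was 0.92 (1.05 without the Malat1-low barcodes). Other kept barcodes had 59.3 to 284 nsCPM. Per barcode Nupr1 ran from 2 to 262 UMIs in Malat1-high barcodes, whose depth ran from 622 to 6870 UMIs. Scaled to depth, this was 3584 to 69800 nsCPM.

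**Figure D5:**
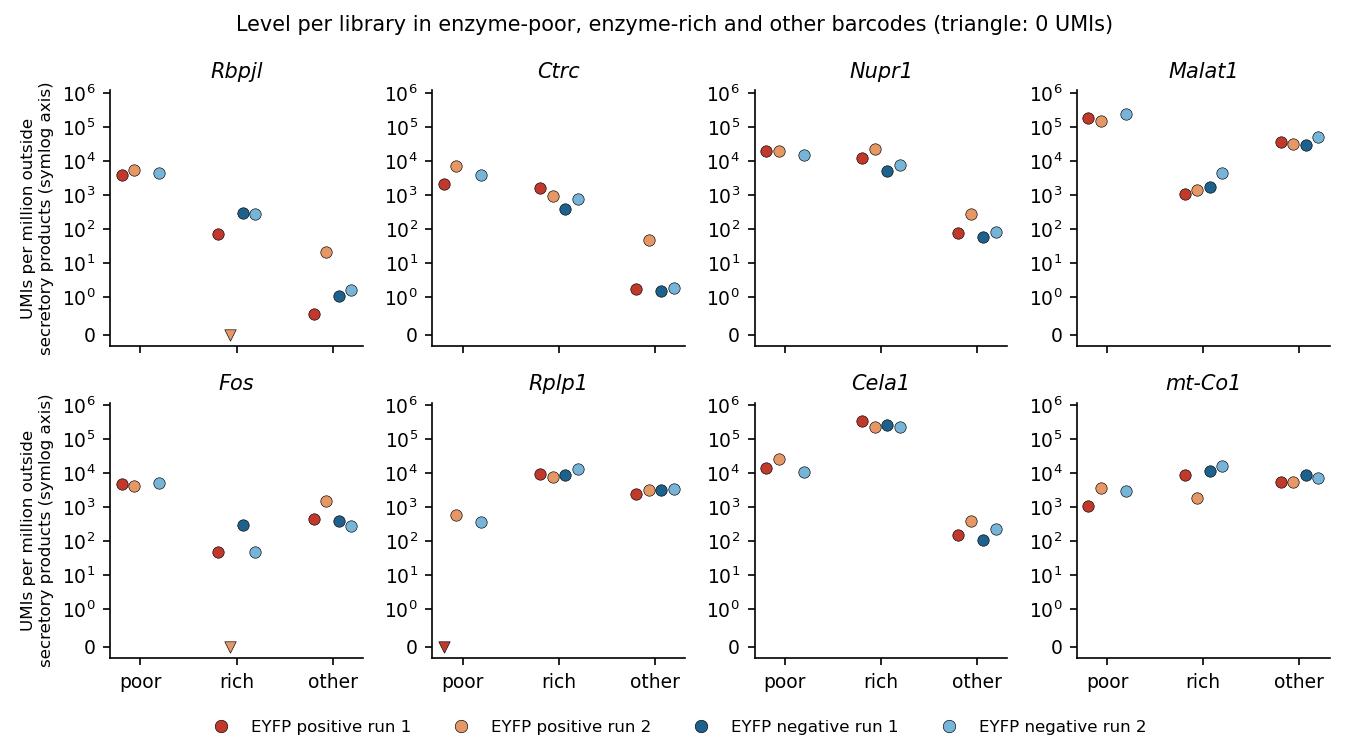
Points give the level of 8 genes (y, nsCPM, symmetric log axis) in enzyme-poor, enzyme-rich and other barcodes (x), 1 point per library, with triangles at 0. Rbpjl, Ctrc, Malat1 and Fos were higher in the poor than in the rich form in every library holding both. Rplp1 and Cela1 were lower, and Nupr1 and mt-Co1 overlapped. Pooled over libraries, mt-Co1 had a log2 ratio of -1.73 on this scale and 0.55 per all UMIs.

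The largest ratios outside these lists included genes of varied function. C2cd4b had 66 UMIs against 1, Chka, a choline kinase, 85 against 2, and Nktr, a cyclophilin-related protein, 51 against 1. Gm49016, a gene with no role annotated here, had 128 UMIs in enzyme-poor barcodes, 0 in enzyme-rich ones and 0.510 nsCPM in other barcodes, and was named after its values were seen. In the other direction Psmb10, an immunoproteasome subunit, had 1 UMI against 106, and Aqp12, an aquaporin of acinar cells, 1 against 92 (ratio 0.0131, interval 0.000328 to 0.0748). The metallothionein gene Mt2 had a log2 ratio of 1.65 and was higher in all 3 libraries that held both forms. Mt1 had a pooled log2 ratio of 0.45, with 0.69 and -2.33 in EYFP positive runs 1 and 2 and -0.91 in EYFP negative run 2, so its direction differed between libraries. Of the duct list, 4 of 19 genes were measured, and Spp1 (osteopontin) had 77 UMIs against 75, but 70 of the 77 were in the Malat1-low barcodes, and its pooled log2 ratio of 0.31 became -2.76 without them. Within libraries Spp1 was lower in enzyme-poor barcodes in all 3, at -4.01 and -1.35 in EYFP positive runs 1 and 2 and -1.78 in EYFP negative run 2, these barcodes included. Krt19, the duct keratin, had 4 UMIs in each form, and Sox9, a duct factor, 9 against 2. Of the 9 Reg and acute-phase genes 2 were measured, with Reg1 21.2-fold lower, and of 19 interferon and MHC class I genes 2, with H2-K1 at 0.89 (-0.28 without the Malat1-low barcodes, and higher in 1 of 3 libraries) and Ly6e at -1.51, which turned to 0.78 per all UMIs. The integrated stress response list was measured by Nupr1 alone. No gene of the circadian clock or cell cycle lists reached 50 UMIs, and Mki67 had none in either form.

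The EYFP label was not used by the rule, so differences between EYFP positive and EYFP negative libraries could be tested. Enzyme-poor barcodes made up 7.89% (exact interval 1.66% to 21.4%) and 83.9% of acinar barcodes in EYFP positive runs 1 and 2, against 0% and 20% in EYFP negative runs 1 and 2. The 0 of 8 barcodes in EYFP negative run 1 allows a share of up to 37.5%. Means were 45.9% ± 53.7 in EYFP positive and 10% ± 14.1 in EYFP negative libraries (SD, n = 2 each), and the difference of 35.9 points was within the spread (two-sided exact permutation test, p = 0.667, smallest possible p = 0.333). Without EYFP positive run 2 the difference was -2.11 points, while within runs 1 and 2 the EYFP positive share was higher by 7.89 and 63.9 points. Without the Malat1-low barcodes it was 32.0 points. Acinar barcodes made up 4.55% and 16.6% of kept barcodes in EYFP positive runs 1 and 2, against 1.83% and 1.13% in EYFP negative runs 1 and 2. Both EYFP positive shares were higher than both EYFP negative ones, and the difference of 9.08 points had p = 0.333 in the two-sided exact permutation test, the smallest this design allows. Without EYFP positive run 1 the difference was 15.1 points and without EYFP positive run 2 it was 3.07 points, and without the Malat1-low barcodes 6.73 points. The part of sorting and cell survival in these shares was not tested.

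In enzyme-rich barcodes, 0 of 218 genes differed between EYFP positive and EYFP negative libraries at an adjusted p under 0.05 (edgeR quasi-likelihood test with Benjamini-Hochberg adjustment, background 0%). At an unadjusted p under 0.05 there were 13, and DESeq2 called 1. The 11 rule enzymes were bound by the rule in their sum, so their values are a description. Their log2 changes ran from -0.85 for Cpb1 to 0.59 for Clps, and Cpb1, carboxypeptidase B1, took 3.21% and 1.48% of UMIs in EYFP positive runs 1 and 2, against 4.49% and 4.14% in EYFP negative runs 1 and 2. The lowest p belonged to Igkc, which encodes the constant region of the kappa light chain in antibody-making cells, with 32.6 and 0 CPM in EYFP positive runs 1 and 2 and 560 and 478 CPM in EYFP negative runs 1 and 2. Its log2 change was -3.94 ± 0.65 (SE) with an adjusted p of 0.182 in edgeR, against 0.0270 in DESeq2 and 0.0177 in edgeR without EYFP negative run 1, where the lone negative library was assumed to vary like the positive ones; the range over all alternatives was 0.0177 to 0.973. Igkc in the other kept barcodes was likewise lower in EYFP positive libraries, at 7516 and 2357 nsCPM in runs 1 and 2, against 55565 and 21433 nsCPM in EYFP negative runs 1 and 2. The 6 B or plasma markers summed to 0.00399% and 0% of enzyme-rich UMIs in EYFP positive runs 1 and 2, against 0.0760% and 0.0620% in EYFP negative runs 1 and 2, and their part in the result was not tested.

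Other genes of low p in enzyme-rich barcodes had an adjusted p of at least 0.779 in edgeR and are given as values. Spp1 had 221 and 722 CPM in EYFP positive runs 1 and 2, against 40 and 40.7 CPM in EYFP negative runs 1 and 2 (log2 change 3.13 ± 0.81). Spp1 in the other kept barcodes was also higher in both EYFP positive libraries, at 6899 and 11282 nsCPM in EYFP positive runs 1 and 2, against 2119 and 4513 nsCPM in EYFP negative runs 1 and 2. Nupr1 had 1892 and 4419 CPM in EYFP positive runs 1 and 2, against 1040 and 1616 CPM in EYFP negative runs 1 and 2 (log2 change 1.15 ± 0.45). The mitochondrial gene mt-Co3 had 1272 and 451 CPM in EYFP positive runs 1 and 2, against 3660 and 3659 CPM in EYFP negative runs 1 and 2 (log2 change -1.90 ± 0.58), and the median mitochondrial share of enzyme-rich barcodes was 0.0382% and 0.132% in EYFP positive runs 1 and 2, against 0.650% and 1.12% in EYFP negative runs 1 and 2. Malat1 had 167 and 271 CPM in EYFP positive runs 1 and 2, against 340 and 966 CPM in EYFP negative runs 1 and 2. These 4 genes were chosen among those of low p, and none passed the adjustment. Counts were small in EYFP positive run 2, with 8 UMIs of Spp1, 5 of mt-Co3 and 3 of Malat1. Spp1 had 2 and 4 UMIs in EYFP negative runs 1 and 2. Of the 95 Malat1 UMIs of EYFP negative run 2, 42 came from 1 barcode.

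In enzyme-poor barcodes, EYFP positive runs 1 and 2 were set against EYFP negative run 2 alone, with 1 residual degree of freedom and the lone negative library assumed to vary like the positive ones. Of 109 genes 0 passed (background 0%), 4 had an unadjusted p under 0.05, and DESeq2 called 1. That gene was Malat1, with 161020 and 124030 CPM in EYFP positive runs 1 and 2, against 233290 CPM in EYFP negative run 2, a log2 change of -0.70 ± 0.15. Its adjusted p was 0.247 in edgeR, 0.0185 in DESeq2 and 0.00176 in edgeR with DESeq2's size factors. Without the Malat1-low barcodes its log2 change was -0.56 with an adjusted p of 0.230 in edgeR. Cela3b, an elastase among the 4 genes of low p, is a rule enzyme, so its values are a description. It had 4889 and 5596 CPM in EYFP positive runs 1 and 2, against 810 CPM, from 7 UMIs, in EYFP negative run 2 (log2 change 2.73 ± 0.98). The test of whether the EYFP difference itself differed between the forms called 0 of 870 genes (background 0%), with 15 at an unadjusted p under 0.05, 0 in DESeq2 and 1 residual degree of freedom. Without the Malat1-low barcodes both tests still called 0 genes in edgeR.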

How the data were processed

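Single cells of mouse pancreas were profiled in 6 droplet libraries, of which the 4 of homeostasis were used. Each deposited file holds unnormalized UMI counts by gene and barcode; the submitters' processing notes name Cell Ranger 2.1.0 and the build GRCh38. Software version 3.1.0 stands in the file headers, and since all identifiers are mouse ones, which mouse build was used is not given in the sources. Members and gene lists were chosen with earlier results of these data known, and 2210010C04Rik was added to the secretory products after its counts were seen.

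UMIs were summed per library and form for sums of at least 3 barcodes and tested with edgeR 4.0.16 in R 4.3.3 (TMM, filterByExpr, quasi-likelihood test, Benjamini-Hochberg adjusted p under 0.05). Forms were compared by sums with 0.5 UMI added to each and no test. For shares, all relabellings of the libraries gave a two-sided exact permutation p, with exact binomial 95% intervals, which cover counting error only, as does the floor of 3 counts. Doublets called by Scrublet (scanpy 1.11.5, 20 components) were kept. The edgeR code was tested on simulated counts. Sums and figures used matplotlib 3.10.9, scipy 1.17.1, pandas 2.3.3 and numpy 2.4.6 under Python 3.11.15.

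Named genes were the rule genes, a fixed list of acinar, duct and nuclear genes, the 12 genes per direction with the largest form ratio and at least 50 UMIs seen in both forms and in 1 direction in every library, up to 4 members per list, and the 5 genes of lowest p per direction in each EYFP comparison. Further members of the lists are named to show their range. Run numbers may pair the libraries of a run, and deviations from the group means in enzyme-rich sums correlated at r = 0.26 within a run.

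Alternatives were DESeq2 1.42.0 and its size factors, no low-count filter, library sizes without secretory genes, all UMIs as the denominator, other limits of the rule and filters, doublets left out, a block for run, and leaving out each library in turn. Leaving out shared barcodes, leaving out the Malat1-low barcodes and keeping 2210010C04Rik in the denominator were added after the data were seen.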

Additional observations from a re-analysis of the deposited data

Results flagged for a closer look

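In the homeostasis libraries, 142 barcodes with at least 25% rule enzymes failed the filters and entered no comparison, 141 with fewer than 200 genes and 3 over the mitochondrial limit. They numbered 68 and 8 in EYFP positive runs 1 and 2, and 3 and 63 in EYFP negative runs 1 and 2. Per library, their median depth was 672 to 1423 UMIs and their median number of genes 108 to 163. They outnumbered the 64 enzyme-rich barcodes that were kept.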

How the results depend on the processing

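The share of enzyme-poor among acinar barcodes ranged from -2.11 to 73.9 points (EYFP positive minus negative) when 1 library was left out, and the acinar share of kept barcodes from 3.07 to 15.1 points. In enzyme-rich barcodes the count of EYFP calls was 1 with DESeq2 (Igkc) and 0 to 4 when 1 library was left out, the 4 being Hbb-bs, Igkc, Amy2a3 and Mt2 without EYFP negative run 1. In enzyme-poor barcodes it was 1 (Malat1) with DESeq2 and 1 with its size factors in edgeR. Between forms, genes at least 4-fold higher numbered 103 and genes at least 4-fold lower 58 per all UMIs, and 111 were at least 4-fold lower with at least 2 Rbpjl UMIs in the rule. Leaving out each library gave 58 to 69 higher and 164 to 193 lower genes. Per all UMIs Gm42418 reversed to 0.23 and the secretory pathway median to 0.23, Ccnd1 reversed to 0.68 with at least 2 Rbpjl UMIs, and Clock to -0.013 as a median over libraries; the cause was not tested. Of 119 form ratios of genes and lists, 15 changed sign as a median over libraries (among them Mt1, Hspa8, Spp1, H2-K1, Krt8 and Nr5a2), 13 per all UMIs, 12 with no mitochondrial limit and 10 without EYFP positive run 2. With run as replicate block, 0 genes were called in enzyme-rich barcodes, and the shares differed by 7.89 and 63.9 points (enzyme-poor of acinar) and by 2.72 and 15.4 points (acinar of kept) within runs 1 and 2. The block changed no call. No paired analysis was possible because of too few libraries in enzyme-poor barcodes and in the interaction, and without any 1 library the enzyme-poor fit had no residual degrees of freedom. The depth of 33 enzyme-poor barcodes limits single genes: 109 could be tested there.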
